A study of Danio rerio with 12 samples.

Results

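In zebrafish larvae at 3 weeks of age, 32 genes were higher in *zbtb24* single mutants than in every library of the other 3 genotypes. The genes were chosen by their measured levels: an average over the 12 libraries of 1 FPKM or more, all 3 *zbtb24* mutant libraries above all 9 others, and a *zbtb24* mutant mean at least 2 times the mean of WT, of *mda5* mutants and of double mutants. FPKM counts the fragments of a gene per kilobase of its transcript and corrects for library size, so that levels of different genes can be compared per length. The table held 32271 features, of which 19424 reached the minimum mean. Of these, 597 had all *zbtb24* mutant libraries on top and 32 also met the fold limit. The height of these genes in *zbtb24* single mutants is therefore a description and not a test.

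The larvae were WT, homozygous for *zbtb24* mk22 (a large deletion of coding sequence), homozygous for *mda5* mk29 (a short deletion in the helicase domain), or homozygous for both alleles. The design asks whether the response to Zbtb24 loss needs the RNA sensor Mda5. Each genotype had 3 libraries of polyadenylated RNA, and each library was a pool of 10 larvae. The study design describes whole larvae, while the sample labels give fin as the source. In RNA from whole animals, a change in the number of cells of a type and a change in RNA per cell cannot be told apart.

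Mda5, encoded by *ifih1*, binds long double-stranded RNA in the cytosol and signals through Mavs to switch on type I interferons. Secreted interferon acts through its receptors on interferon-stimulated genes, whose products detect, bind or degrade viral RNA or modify host proteins. Several of these products, among them Irf7 and the RNA sensors themselves, feed back on the same pathway. Zbtb24 is a zinc finger protein whose loss in people causes ICF syndrome, in which immune function is poor and the DNA around centromeres loses methylation.

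The libraries followed their genotype labels at *CDCA7*, a known target of Zbtb24, which was between 0.0118 and 0.101 FPKM in the 6 libraries with the *zbtb24* mutation and between 2.53 and 3.48 FPKM in the other 6. The *ZBTB24* row itself was higher in those 6 libraries (1.06 to 1.74 FPKM) than in the other 6 (0.348 to 0.587 FPKM); a value for the whole gene includes sequence outside the deletion and does not check the deleted part. The *IFIH1* transcript was at 0.354 to 0.613 FPKM in *mda5* mutants and at 0.381 to 0.573 FPKM in double mutants, against 0.732 to 0.820 FPKM in WT and 1.35 to 1.87 FPKM in *zbtb24* mutants. Markers of whole-body tissues (muscle, skin, liver, intestine, brain) were present in every library. The summed FPKM of 21 macrophage marker rows ranged from 181 to 226 in WT, from 215 to 267 in *mda5* mutants, from 244 to 338 in *zbtb24* mutants and from 237 to 269 in double mutants, with 1 row under 0.1 FPKM throughout the *mda5* mutants. The sums of 11 neutrophil rows (WT 279.5 to 534.5, *mda5* mutants 294.0 to 323.9, *zbtb24* mutants 283.1 to 333.4, double mutants 265.9 to 577.3) and of 21 lymphocyte rows (107.4 to 115.7, 98.1 to 113.5, 100.03 to 109.0 and 106.0 to 124.4, in the same order) overlapped between *zbtb24* mutants and each other genotype. The sums of 6 erythrocyte rows were 356 to 727 in WT and 9.40 to 23.3 in *zbtb24* mutants. They were 19.6 to 180.1 in double mutants and 46.3 to 463 in *mda5* mutants. The sums of 11 intestine rows were 951 to 1004 in *zbtb24* mutants and 1250 to 1308 in WT. They were 1196 to 1796 in double mutants and 927 to 1288.5 in *mda5* mutants. Such sums weight the most abundant rows most. Of 18 tested lymphocyte rows, 1 was lower and 0 higher in *zbtb24* mutants than in WT (limma adjusted p under 0.05). Their median log2 change was -0.34, with 4 of the 18 above 0. Between double and *mda5* mutants 0 of the 18 passed and the median was 0.30. Of 5 tested erythrocyte rows, 4 were lower and 0 higher in *zbtb24* mutants than in WT (limma adjusted p under 0.05). Their median log2 change was -1.03. Between double and *mda5* mutants 0 of the 5 passed and the median was -0.30. The summed FPKM of 10 eye rows lay between 979 and 1138 in *zbtb24* mutants, 968 and 1369 in double mutants, 1941 and 2378 in *mda5* mutants, and 1737 and 2433 in WT. Between *zbtb24* mutants and WT 6 of the 10 were lower and 0 higher (limma adjusted p under 0.05), with a median log2 change of -1.12, and between double and *mda5* mutants 0 passed and the median was -1.30. Of 16 tested skeletal muscle rows, 2 were lower and 0 higher in *zbtb24* mutants than in WT. Their median log2 change was -0.35, with 0 of the 16 above 0. Between *mda5* mutants and WT 0 passed, where 0.00462% of all features did, with 1 of the 16 above 0 and a median of -0.41. Between double and *mda5* mutants 0 passed, where 0.134% of all features did, with 11 of the 16 above 0 and a median of 0.31. Of all 21623 tested features, 1439 were lower in *zbtb24* mutants than in WT, and the median log2 change was -0.0044. By the ratio of means, 49.7% of all features were above 1. Between double and *mda5* mutants 18 of all features were lower, with a median of 0.017. The part of cell composition in the levels below was not tested.

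By role, 14 of the 32 genes were on a list of interferon genes, 3 among 21 rows for sensors, transcription factors and other signalling genes and 11 among 60 rows for antiviral effectors. None was on any of 18 further lists, which covered inflammatory cytokines, antigen processing, complement, blood and tissue cell types, p53 targets, stress and DNA methylation genes. The remaining 18 comprised 7 genes with a symbol, 10 named after a clone and 1 without a symbol. Capital symbols are given as in the name table used and refer to the zebrafish genes.

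**Figure D1:**
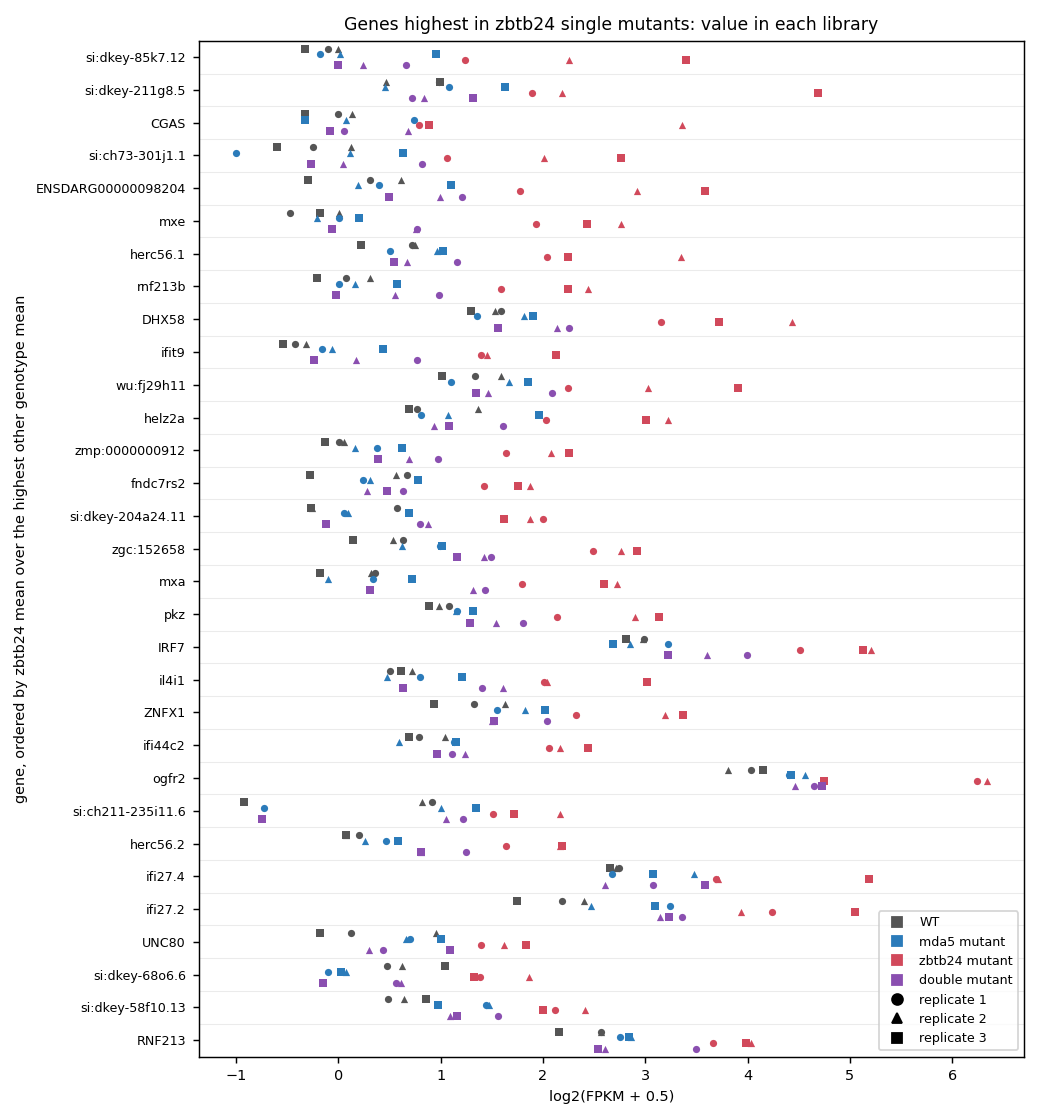
FPKM of 31 of the 32 genes on a log2 scale after adding 0.5, with 1 row per gene, 1 point per library, colour for genotype and shape for replicate. By the rule every red point (*zbtb24* mutant) lies to the right of all others in its row. In *ogfr2* the gap is narrow, 26.4 FPKM against at most 25.96, and in *mxe* it is wide, 3.32 FPKM against at most 1.1997.

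*IRF7*, the transcription factor that amplifies interferon production, was at 7.44, 7.38 and 6.52 FPKM in WT and at 8.80, 6.69 and 5.91 FPKM in *mda5* mutants. It reached 22.3, 36.3 and 34.4 FPKM in *zbtb24* mutants and at 15.4, 11.7 and 8.79 FPKM in double mutants. WT and *mda5* mutants overlapped, with a ratio of means of 1.003, and the double mutants lay between them and the *zbtb24* mutants except for replicate 3, which was level with *mda5* mutant replicate 1. *DHX58* encodes Lgp2, an RNA helicase of the same family as Mda5. It was at 2.51, 2.39 and 1.957 FPKM in WT, 2.06, 3.01 and 3.24 FPKM in *mda5* mutants, 8.37, 21.1 and 12.7 FPKM in *zbtb24* mutants and 4.26, 3.88 and 2.46 FPKM in double mutants. Its WT, *mda5* mutant and double mutant libraries overlapped.

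Among the effectors, the Mx genes encode interferon-induced GTPases that block viruses. *mxe* had the widest gap to the other genotypes: its libraries were at 3.32, 6.27 and 4.90 FPKM in *zbtb24* mutants, against 0.220 to 0.501 FPKM in WT, 0.362 to 0.646 FPKM in *mda5* mutants and at 0.454 to 1.1997 FPKM in double mutants. *mxa* was at 2.97, 6.11 and 5.55 FPKM in *zbtb24* mutants and at 2.202, 1.99 and 0.737 FPKM in double mutants, with 0.383 to 0.778 FPKM in WT and 0.434 to 1.15 FPKM in *mda5* mutants. In double mutants *mxa* was thus above every WT and *mda5* mutant library in replicates 1 and 2 but not in replicate 3.

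The *ifi27* genes encode small hydrophobic proteins induced by interferon. *ifi27.2* was at 18.3, 14.7 and 32.6 FPKM in *zbtb24* mutants, 9.79, 8.34 and 8.88 FPKM in double mutants, 8.98, 5.04 and 8.06 FPKM in *mda5* mutants and at 4.05, 4.79 and 2.85 FPKM in WT. All libraries of both genotypes with the *mda5* mutation were above all WT libraries. *ifi27.4* was at 12.4, 12.6 and 35.9 FPKM in *zbtb24* mutants, so its mean of 20.3 FPKM rested largely on replicate 3, and at 5.60 to 11.5 FPKM in the other libraries. These genes are next to each other on chromosome 13 of the GRCz12tu gene order. Reads shared by such close copies may have been split between them. The same may hold for the like-named *mxa* with *mxe*, *herc56.1* with *herc56.2* and *RNF213* with *rnf213b*. Sequences were not compared for any of these.

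*ifit9*, of a family of proteins that bind viral RNA ends, was at 2.13, 2.23 and 3.86 FPKM in *zbtb24* mutants and at 1.199, 0.627 and 0.346 FPKM in double mutants, with 0.188 to 0.301 FPKM in WT and 0.394 to 0.852 FPKM in *mda5* mutants. *pkz*, a fish kinase related to the RNA-activated kinase PKR that binds Z-form nucleic acids, was at 3.89, 6.94 and 8.30 FPKM in *zbtb24* mutants and at 2.999, 2.40 and 1.93 FPKM in double mutants, with 1.35 to 1.61 FPKM in WT and 1.71 to 1.99 FPKM in *mda5* mutants. In *ifit9* and *pkz* every double mutant library exceeded every WT library, and so did every *mda5* mutant library. The large E3 ubiquitin ligase genes *RNF213* and *rnf213b* had *zbtb24* mutant means of 14.5 ± 1.99 and 3.89 ± 1.24 FPKM (SD, n = 3), 2.93 and 7.03 times the WT means. The helicase genes *helz2a* and *ZNFX1* reached 6.64 ± 2.73 and 7.65 ± 2.80 FPKM and *ifi44c2* 4.20 ± 0.66 FPKM (SD, n = 3), at 4.53, 3.82 and 3.24 times WT. The gap was narrow in *helz2a*: its *zbtb24* mutant replicate 1 was at 3.57 FPKM, against 3.39 FPKM in *mda5* mutant replicate 3.

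Of the genes on no list, *ogfr2*, related to the opioid growth factor receptor, was the most abundant of the 32. It was at 74.9, 80.4 and 26.4 FPKM in *zbtb24* mutants, 24.5, 21.6 and 25.96 FPKM in double mutants, 20.7, 23.0 and 21.0 FPKM in *mda5* mutants and at 15.9, 13.5 and 17.3 FPKM in WT. Its replicate 3 was therefore barely above the double mutants. *CGAS*, the cytosolic DNA sensor that makes cyclic GMP-AMP, met the rule through 1 library: its *zbtb24* mutant values were 1.23, 9.75 and 1.34 FPKM, and the highest other value was 1.17 FPKM, in *mda5* mutant replicate 1.

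*herc56.1* and *herc56.2* belong to a family of ubiquitin ligases whose human member HERC5 attaches ISG15. *herc56.1* was at 3.62, 9.70 and 4.23 FPKM in *zbtb24* mutants and between 0.664 and 1.73 FPKM elsewhere. *herc56.2* was at 2.62, 3.98 and 4.06 FPKM in *zbtb24* mutants, 1.87, 1.25 and 1.24 FPKM in double mutants, 0.880, 0.696 and 0.998 FPKM in *mda5* mutants and at 0.652, 0.554 and 0.553 FPKM in WT. The 4 genotypes of *herc56.2* did not overlap, in the order WT, *mda5* mutants, double mutants, *zbtb24* mutants.

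*il4i1*, an L-amino acid oxidase gene, was at 3.53, 3.603 and 7.61 FPKM in *zbtb24* mutants and between 0.891 and 2.55 FPKM elsewhere. *UNC80*, which in mammals encodes a subunit of a sodium leak channel, was at 2.13, 2.58 and 3.06 FPKM against 0.382 to 1.63 FPKM, and *fndc7rs2* at 2.18, 3.17 and 2.86 FPKM against 0.322 to 1.21 FPKM. Of the genes named after a clone, *si:dkey-85k7.12* had the highest ratio, with 1.86, 4.27 and 10.0 FPKM in *zbtb24* mutants, 6.93 times the mean of the next genotype, followed by *si:dkey-211g8.5* with 3.21, 4.05 and 25.3 FPKM. In both, replicate 3 was more than 2 times the other replicates.

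*zgc:152658* was more even, at 5.11, 6.28 and 7.06 FPKM in *zbtb24* mutants, 2.32, 2.17 and 1.73 FPKM in double mutants, 1.49, 1.04 and 1.52 FPKM in *mda5* mutants and at 1.05, 0.950 and 0.602 FPKM in WT. Its double mutant libraries lay above all *mda5* mutant and WT libraries. *si:dkey-68o6.6* was the only gene of the 32 with lower means in *mda5* and double mutants than in WT. It was at 0.889, 1.04 and 1.56 FPKM in WT, 0.432, 0.554 and 0.520 FPKM in *mda5* mutants, 2.12, 3.14 and 2.01 FPKM in *zbtb24* mutants and 0.973, 1.03 and 0.403 FPKM in double mutants.

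The *zbtb24* mutant means of the 32 genes ranged from 2.42 to 60.6 FPKM with a median of 5.15, and the WT means from 0.245 to 15.6 FPKM with a median of 1.01. The ratio of the *zbtb24* mutant mean to the WT mean had a median of 5.59 (2.08 to 13.1), and to the double mutant mean a median of 3.05 (2.01 to 7.36). These ratios were set in part by the rule. In limma, with p-values adjusted over the 21623 features that averaged 0.5 FPKM or more, 30 of the 32 were higher in *zbtb24* mutants than in WT, where 4.92% of all features were. *CGAS* and *si:ch211-235i11.6* did not pass (limma adjusted p = 0.0732 and 0.151). The count was 17 without WT replicate 3 and 15 when only these genotypes were fitted. Between double and *zbtb24* mutants 0 of the 32 passed, where 0.00462% of all features did, and the smallest limma adjusted p of the 32 was 0.108; at an unadjusted p under 0.05, 31 were lower, as were 6.64% of all features. The interaction, which sets the effect of *zbtb24* loss in *mda5* mutants against its effect in otherwise WT larvae, passed for 0 of the 32 and for 0% of all features (smallest limma adjusted p of the 32, 0.0943); 29 had an unadjusted p under 0.05 and a lower value, against 11.8% of all features. All 3 contrasts contain the libraries that chose the genes and are given for completeness. Without WT replicate 2, 20 of the 32 and 2128 of all features passed the interaction test.

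The rule set no order among WT, *mda5* and double mutants, although it capped all of them. Levels in double mutants were mostly a little above WT. The ratio of means, double mutant over WT, had a median of 1.67 (0.689 to 2.95) and was above 1 for 31 genes, against a median of 1.0015 over all tested features, 50.3% of which were above 1. Taking the rise from the WT mean to the *zbtb24* mutant mean as a whole, the double mutant mean stood at a median of 14.2% of it, and at under 25% for 29 genes. The rule itself kept this share low, since it asked for a *zbtb24* mutant mean at least 2 times that of double mutants, so the share is a description only. The remaining 3, *herc56.2*, *si:dkey-58f10.13* and *ifi27.2*, stood at 29.3%, 28.6% and 28.4%.

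None of the 32 passed the test between double mutants and WT (0 of 32 in limma, against 0.402% of all features). The smallest adjusted p was 0.0581, for *zgc:152658*, whose log2 change was 0.92 ± 0.17 (SE). *herc56.2* (0.83 ± 0.18), *ifi27.2* (1.13 ± 0.29) and *IRF7* (0.68 ± 0.23; log2 changes with SE) did not pass either, with limma adjusted p of 0.0926, 0.162 and 0.283. Without *zbtb24* mutant replicate 3, which enters only the estimate of the spread, *ogfr2* passed (log2 change 0.61, limma adjusted p = 0.0469). At an unadjusted p under 0.05, 11 of the 32 were higher and 0 lower in double mutants, against 6.08% higher over all features. In 10 of the 32, all double mutant libraries lay above all WT libraries, which 9.27% of all features did, among them *IRF7*, *herc56.2*, *ifi27.2*, *ifit9*, *ogfr2*, *pkz*, *si:dkey-58f10.13*, *zgc:152658* and ENSDARG00000087575, named after a clone. The median log2 change of the 32 was 0.48 on the scale log2(FPKM + 0.5), which understates changes of low genes, beside 0.0033 over all features.

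Against *mda5* mutants, the comparison that holds the *mda5* genotype fixed, the double mutants differed less. The ratio of means had a median of 1.25 (0.863 to 2.099) and was above 1 for 24 genes, against 53.2% of all features. In limma 0 of the 32 passed, as did 0.134% of all features, and 3 were higher at an unadjusted p under 0.05 (*IRF7*, *herc56.2* and *zgc:152658*), a share of 9.38% beside 7.18% over all features. *IRF7* had the smallest p, changing by 0.69 ± 0.23 on the log2 scale (SE; adjusted p = 0.304 in limma). All double mutant libraries were above all *mda5* mutant libraries in *herc56.2* and *zgc:152658*, 6.25% of the 32, against 12% of all features. The median log2 change was 0.20, beside 0.017 over all features.

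The *mda5* mutants themselves had means above WT for 31 of the 32, by a median ratio of 1.37 (0.431 to 2.32), while 47% of all features were above 1. In limma 0 of the 32 passed, with 0.00462% of all features passing. At an unadjusted p under 0.05, *si:dkey-58f10.13*, *ifi27.2* and *zgc:152658* were higher, 9.38% beside 6.3% over all features, and *si:dkey-68o6.6* was lower. The log2 changes of *ifi27.2* and *si:dkey-68o6.6* were 0.83 ± 0.29 and -0.71 ± 0.23 (SE), with adjusted p of 0.332 and 0.326 in limma. In 9 of the 32 all *mda5* mutant libraries lay above all WT libraries, which 7.7% of all features did. The median log2 change of the 32 was 0.27, beside -0.018 over all features. These comparisons share the WT, *mda5* mutant and double mutant libraries with one another and are not separate evidence.

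**Figure D2:**
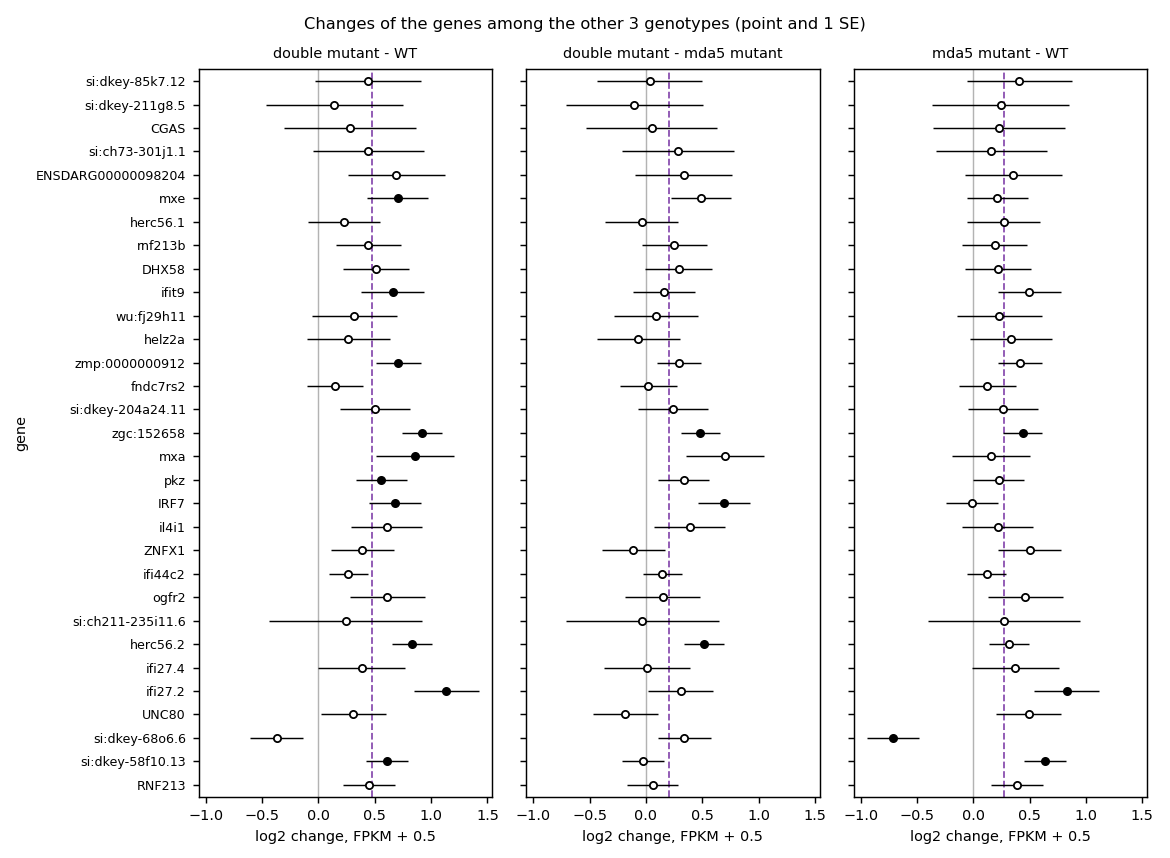
Log2 changes of 31 of the 32 genes between the 3 genotypes other than *zbtb24* single mutants, on the scale log2(FPKM + 0.5), with 1 SE from limma. Filled points have an unadjusted p under 0.05, and the dashed line is the median of the 32 genes (0.48, 0.20 and 0.27 from left to right). No gene passes after adjustment over all features, and *si:dkey-68o6.6* is the only gene left of 0 in the comparison of double mutants with WT.

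Within a genotype, the same libraries were low or high for most of the 32 genes. As a median shift in log2(FPKM + 0.5) from the WT mean, *zbtb24* mutant replicate 1 stood at 1.43 and replicates 2 and 3 at 1.98 and 2.19, a mean of 1.87 ± 0.39 (SD, n = 3). Replicate 1 was the lowest *zbtb24* mutant library for 27 of the 32, including *IRF7*, *DHX58*, *mxa* and *mxe*, while it was the lowest for 31.7% of all tested features. In 12 of these replicate 2 was the highest and in 15 replicate 3. The median SD of the log2 values between *zbtb24* mutant replicates was 0.51 for the 32 genes and 0.18 for all features. The same 2 values were 0.38 and 0.16 in double mutants, 0.30 and 0.15 in *mda5* mutants and 0.25 and 0.18 in WT. The 32 genes had a median level of 2.28 FPKM over the 12 libraries, against 5.91 FPKM over features averaging 1 FPKM or more. Spread was not compared with features of like level.

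The double mutants stood at 0.81, 0.52 and 0.16 on the same scale (0.50 ± 0.33; SD, n = 3), the *mda5* mutants at 0.21, 0.17 and 0.55 (0.31 ± 0.21) and the WT libraries at 0.04, 0.14 and -0.22 (-0.013 ± 0.18). Double mutant replicate 1 was the highest of its genotype for 23 of the 32 and replicate 3 the lowest for 23, against 36.2% and 37.4% of all features. Double mutant replicate 1 also held the highest value outside *zbtb24* mutants for 19 genes, among them *IRF7*, *DHX58*, *mxa* and *mxe*. *mda5* mutant replicate 3 was the highest of its genotype for 24 genes, against 33.6% of all features, and WT replicate 3 the lowest of its genotype for 25, against 27.6%. The medians of all tested features stayed between -0.033 and 0.015 in every library.

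**Figure D3:**
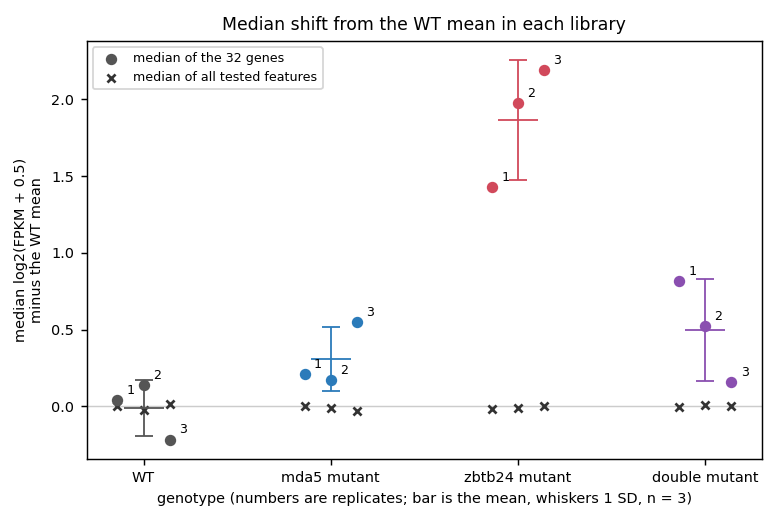
Median shift of the 32 genes from the WT mean in each library (circles, numbered by replicate) with the mean and SD of the 3 libraries of a genotype, beside the median of all 21623 tested features (crosses). The *zbtb24* mutants lie between 1.43 and 2.19 and every other library at 0.81 or below, while the crosses stay near 0. Double mutant replicate 3, at 0.16, lies between the highest WT library (0.14) and the lowest *mda5* mutant library (0.17).

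The pathway around these genes was then followed through the members of both interferon lists that are not among the 32, 67 rows in all, of which 60 were tested. The lists were chosen with earlier results of these data known. The rule had also taken out rows by their values in these same libraries. The counts are therefore a description and not independent support. Between *zbtb24* mutants and WT 17 were higher and 0 lower (limma adjusted p under 0.05; 4.92% of all features were higher), with a median log2 change of 0.68 beside -0.0044 over all features. These 17 included *mxc*, *xaf1*, *stat2*, *usp18*, *adar*, *PARP12*, *samd9l* and *RSAD2*. Between double mutants and WT, double and *mda5* mutants, and *mda5* mutants and WT, 0 of the 60 passed in each case. At an unadjusted p under 0.05, 9, 9 and 3 of them were higher and 1, 0 and 3 lower, where 6.08%, 7.18% and 6.3% of all features were higher. The direct comparison of double with *zbtb24* mutants and the interaction also passed for 0 of the 60. At an unadjusted p under 0.05, 26 and 17 were lower in these and 0 and 2 higher, where 6.64% and 11.8% of all features were lower. The 60 rows include *IFIH1*, the gene that is itself mutated in *mda5* and double mutants. The interferon ligand genes *ifnphi1*, *ifnphi2* and *ifnphi3* had genotype means between 0 and 0.731 FPKM, under the minimum of the rule. They did not meet its fold limit either: their *zbtb24* mutant means were 0.863, 1.32 and 0.492 times the highest other genotype mean.

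Both lists together hold 81 rows, and the rule took 14 of them. Another 18 had a mean under 1 FPKM, and these were not all higher in *zbtb24* mutants. *IFIH1*, *CMPK2* and *ifit10* were there at 2.07, 4.37 and 6.96 times the highest other genotype mean. In contrast, *mxg*, *gbp4* and *trim25l* were at 0.344, 0.534 and 0.761 times it. Lower still were *ifi44a3*, *ifi44f1* and *SAMD9L* (ENSDARG00000102729), at 0.030, 0.228 and 0.270 times it. This *SAMD9L* row was at 0.664 to 1.11 FPKM in WT and 0.166 to 0.274 FPKM in *zbtb24* mutants. It is a different row from the *samd9l* named below. A further 8 were separated but under 2-fold: *stat2*, a transcription factor of the interferon response, was at 16.1, 21.6 and 30.1 FPKM in *zbtb24* mutants and at most 15.4 FPKM elsewhere, and *ifi27.1*, the most abundant of the 8, at 144.7, 118.0 and 117.4 FPKM against 59.3 to 92.6 FPKM. *usp18*, *mxc*, *PARP12*, *adar*, *xaf1* and *samd9l* were the others.

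Another 7 reached the 2-fold limit but were not separated: *isg15*, *RSAD2*, *mxb*, *ifit8*, *ifit14*, *ifit15* and *gig2e*. *RSAD2*, which encodes the antiviral enzyme viperin, was at 3.92, 27.13 and 19.3 FPKM in *zbtb24* mutants, 0.817, 0.954 and 1.25 FPKM in double mutants, 0.619, 1.05 and 4.59 FPKM in *mda5* mutants and at 0.922, 4.22 and 1.21 FPKM in WT. *isg15*, a ubiquitin-like modifier, was at 5.33, 22.6 and 48.4 FPKM in *zbtb24* mutants and between 0.797 and 10.5 FPKM elsewhere. In both it was *zbtb24* mutant replicate 1 that fell among the other genotypes. The other 34 rows met neither limit.

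**Figure D4:**
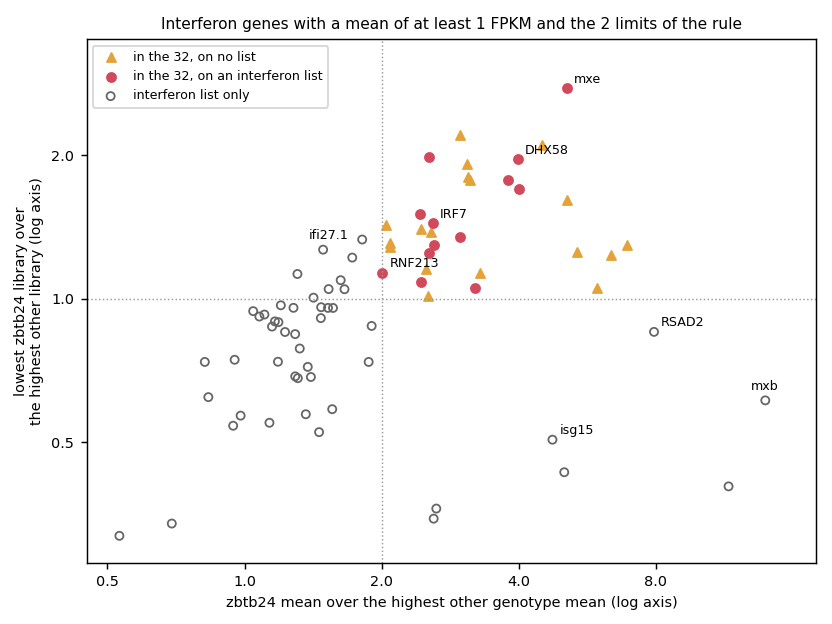
Interferon list genes averaging 1 FPKM or more and 31 of the 32 genes, placed by the ratio of the *zbtb24* mutant mean to the highest other genotype mean (x, log axis) and by the ratio of the lowest *zbtb24* mutant library to the highest library of any other genotype (y, log axis). Dotted lines mark the limits of 2 and 1, and these 31 genes fill the upper right. *RSAD2*, *isg15* and *mxb* lie to the right but below the line for separation, and *ifi27.1* above it but to the left.

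The fold limit fell among closely spaced genes. Just inside were *RNF213* at 2.01, *si:dkey-58f10.13* at 2.04 and *si:dkey-68o6.6* at 2.08 times the next genotype mean, and just outside *si:ch211-217k17.12* at 1.99, *HFM1* at 1.97 and *btr29* at 1.963. The same rule with another genotype on top gave 20 genes for WT, 1 for *mda5* mutants and 3 for double mutants. Turned to the lowest values, it gave 14 genes for *zbtb24* single mutants, 10 for WT, 6 for *mda5* mutants and 3 for double mutants.

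Membership depended on single libraries. Without *zbtb24* mutant replicate 1 the rule gave 77 genes, 31 of the 32 among them. Genes it then took in included *isg15*, *RSAD2*, *mxb*, *mxf*, *ifit8*, *ifit14*, *ifit15*, *STING1* and *herc7*. They also included *KLHL38*, *LPIN1*, *PPARA*, *VDR*, *XIRP2* and further genes outside the interferon lists. Without replicate 3 it gave 54, of which 25 were shared, and lost *ifit9*, *ifi27.2*, *ifi27.4*, *il4i1*, *RNF213*, *UNC80* and *si:ch73-301j1.1*. Without replicate 2 it gave 38, of which 27 were shared, and *CGAS* was among those lost. Without a library of another genotype the rule gave between 31 and 41 genes and lost at most 3 of the 32. *RNF213* and *si:dkey-58f10.13* were lost without double mutant replicate 2 and again without double mutant replicate 3. In all, 21 of the 32 were kept whichever of the 12 libraries was left out, including *IRF7*, *DHX58*, *mxa*, *mxe*, *pkz*, *helz2a*, *ZNFX1*, *ifi44c2*, *rnf213b*, *herc56.1* and *herc56.2*. Leaving out a library cannot undo the separation of the rest and can only loosen it. These counts therefore check only the fold limit and the minimum mean, and some genes enter through the looser separation. *ifit9*, averaging 1.07 FPKM over the 12 libraries, stood near that minimum.

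In the GRCz12tu gene order, 25 of the 32 could be placed by symbol, on 13 chromosomes. Apart from *ifi27.2* and *ifi27.4*, the only pair within 10 genes of each other was ENSDARG00000087575 and *si:dkey-68o6.6* on chromosome 3, with 3 genes between them. These neighbours differed in *mda5* mutants, where ENSDARG00000087575 was at 0.799, 0.622 and 1.04 FPKM, above all WT libraries (0.412 to 0.536 FPKM), and *si:dkey-68o6.6* was below all of them.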

How the data were processed

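Polyadenylated RNA from 12 pools of 10 larvae, 3 for each genotype, was sequenced from both ends in stranded libraries. The authors trimmed reads with Trimmomatic 0.33, mapped them to GRCz10 with TopHat2 2.1.1 and deposited FPKM estimated by Cuffquant and scaled by Cuffnorm (Cufflinks 2.2.1). No fragment counts were used here, so these values do not give each library's depth, and precision rests on the spread between 3 pools. Replicates are separate pools of different larvae. FPKM of near-identical copies are uncertain.

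The members and lists were chosen with earlier results of these data known. The 21623 features averaging 0.5 FPKM or more were tested on log2(FPKM + 0.5) with limma 3.58.1 in R 4.3.3, with 4 genotype means, a mean-variance trend, two-sided p-values and Benjamini-Hochberg adjustment at 0.05 within each contrast. The fit was tested on simulated data with independent noise in each feature and library. That setting leaves out shifts that many genes share within a library. Symbols came from a table of Ensembl identifiers and covered 31 of the 32 genes. Genes were named mainly by rule: the highest ratios, the highest levels and members of lists. Also named were members passing between the other genotypes (0 genes) and those nearest the fold limit. Others were named after seeing their values. Some genes with high ratios were left out, among them *wu:fj29h11*. 1 of the 32 enters the counts, but is not reported here. Alternatives tried were a pseudocount of 0.1 or 1, a minimum mean of 1 or none, quantile normalization, median centring, a replicate block, eBayes without trend, fits of the compared groups alone and each library left out; for the rule, minimum means of 0.5 and 2, folds of 1.5 and 3, no separation and other scalings.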

Additional observations from a re-analysis of the deposited data

How the results depend on the processing

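The median log2 changes of the 32 genes among WT, *mda5* and double mutants moved by less than the replicate spread under all 21 alternatives. Without each library in turn they ranged from 0.36 to 0.68 for double mutants against WT, from 0.12 to 0.42 against *mda5* mutants and from 0.11 to 0.42 for *mda5* mutants against WT. The 7 log2 changes of named genes given with an SE for these comparisons kept their direction, and their adjusted p stayed above the threshold of 0.05. *ogfr2* was not among these 7, and it passed between double mutants and WT without *zbtb24* mutant replicate 3. These values do not give each library's depth, so precision rests on 3 pools per genotype.

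Counts depended more on the processing, and causes were not tested. The number of genes meeting the rule was 18 at a minimum mean of 2, 116 and 16 at folds of 1.5 and 3, 111 without separation and 31 to 77 without each library. All features called between *zbtb24* mutants and WT (2502) numbered 221 when only those groups were fitted and 246 to 3456 without each library. Of the 32 genes, 15 and 17 to 30 passed in the same fits, with 17 without WT replicate 3. Between double and *zbtb24* mutants, all calls numbered 2 with a pseudocount of 1, 3 with no filter, 2 with quantile normalization, 2 in the fit of those groups and 1 to 5 without each library. Among the 32 they numbered 1 with a pseudocount of 1 (*zgc:152658*) and 0 to 2 without each library (2, *pkz* among them, without *zbtb24* mutant replicate 1, and *ogfr2* without replicate 3). The interaction gave 3 with no filter and 0 to 2128 without each library, and 0 to 20 of the 32, both maxima without WT replicate 2. Double against *mda5* mutants gave 3 in the fit of those groups and 13 to 37 without each library. Double mutants against WT gave 56 with no filter, 9 in the fit of those groups and 25 to 144 without each library, and 0 to 1 of the 32 (*ogfr2*, without *zbtb24* mutant replicate 3). *mda5* mutants against WT gave 2 with no filter, 3 with quantile normalization (2 higher, 1 lower), 3 in the fit of those groups and 1 to 3 without each library.

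With the replicate number as a block, 1578 features passed between *zbtb24* mutants and WT, 29 of the 32 genes among them, and 46 between double mutants and WT (0 of the 32), against 87. The replicate block left the other counts within 1.5 times and the 32 genes at 0 calls in every other comparison. The labels do not say whether same-numbered libraries share anything beyond the number. Correlations of their deviations over all tested features ran from -0.12 to 0.17, with 2 of 18 pairs over 0.1. Such correlations cannot exclude a batch that acts on a part of the genes.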
